A study of Mus musculus with 9 samples.

Results

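The transcripts of the ribosomal proteins, those of the cytosolic ribosome and those of the mitochondrial ribosome, were followed in mouse hepatic stellate cells. Members were chosen by gene name alone: every probe that was not a control and whose name began with Rpl or Rps and a number, or was Rplp0, Rplp1 or Rplp2, was taken as cytosolic, and every probe named Mrpl or Mrps and a number as mitochondrial. Names beginning with Rps6k, which are protein kinases, and pseudogenes with -ps in the name were left out. This gave 303 of the 56605 probes on the array, 184 cytosolic and 119 mitochondrial, for 86 cytosolic and 77 mitochondrial genes. A probe was kept where 1 group or more had it well above background on each of its 3 arrays, and the brightest kept probe stood for its gene. All 77 mitochondrial genes and 84 of the 86 cytosolic genes passed, among 23965 genes in all. The cytosolic genes that did not pass were Rpl3l, a paralog known from muscle, and Rpl10l, a paralog known from testis. The name rule also caught a pair of genes whose products are not ribosomal proteins: Rps19bp1, which encodes a partner of Rps19, and Mrps36, now known as a component of 2-oxoglutarate dehydrogenase.

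The study compared hepatic stellate cells, which store vitamin A in the healthy liver and turn into matrix-producing myofibroblasts on activation, in 3 groups of 3 one-colour Agilent arrays. All cells were primary cells from C57BL/6 mice aged 10 weeks. The qhsc group held quiescent stellate cells with no treatment. The nc group held cells activated by culture for 7 days on a hard plate and then transfected overnight with 5 nM of a negative control siRNA. The si-cav group was cultured and transfected in the same way, with an siRNA against Cav1, which encodes the caveolar coat protein caveolin-1. So nc and si-cav share culture, plate and transfection, and nc differs from qhsc in all of these at once. Whether replicates are separate mice or cultures is not given in the labels, so the p-values below measure only the spread between these samples, which may be technical.

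The cytosolic ribosome translates the messages of the nucleus, and its proteins are made in nearly equal numbers from some of the most abundant mRNAs of a cell. Many of these mRNAs begin with a cytosine followed by a run of pyrimidines, the 5′ terminal oligopyrimidine tract, through which mTOR signalling controls their translation. The mitochondrial ribosome translates only the few messages of the mitochondrial genome, all of them for subunits of the respiratory chain and ATP synthase, and its proteins are encoded in the nucleus, made in the cytosol and imported.

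Values are log2 signals on a scale where 0 is the 75th percentile of each array, and no spot was saturated. Between 51.5 and 69.0% of probes stood above background on an array. The arrays lay on 2 slides: slide 1 held the 3 qhsc arrays and nc array 1, and slide 2 held nc arrays 2 and 3 and the 3 si-cav arrays. The qhsc arrays carried clear signal of other liver cells. All 17 hepatocyte markers measured were above background on every qhsc array, with a summed log2 level of 10.44 to 10.73 against 3.95 to 4.31 in nc, where 7 of the 17, Pck1 and Hnf4a among them, were above background on no array. All 15 endothelial and all 14 macrophage markers were likewise above background on every qhsc array, and every one of these 46 markers was lower in nc by limma's adjusted p. Of 16 lymphocyte and neutrophil markers 15 were lower, and of 7 cholangiocyte markers 4 were lower and 2 higher. Of 14 markers of activated stellate cells 13 were higher in nc. Of 13 quiescent stellate markers 7 were lower and 2 higher in nc, with a median change of -1.24, and 2 were above background on no nc array. Their summed level, to which bright markers add most, was 6.04 to 7.38 in qhsc and 6.87 to 7.00 in nc. Fewer cells of a type and less RNA per cell cannot be told apart in these samples, and the part of the other cell types in the differences between qhsc and nc below was not tested. Cav1 itself read -1.34, -1.12 and -1.09 on the nc arrays and -2.87, -2.89 and -3.07 on the si-cav arrays, a difference of -1.76 (SE 0.24, limma adjusted p = 0.14).

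The median log2 signal of the cytosolic members was 6.43, 6.06 and 6.22 on the qhsc arrays, 6.51, 6.77 and 6.81 on the nc arrays, and 6.93, 6.80 and 6.87 on the si-cav arrays. All 6 cultured arrays were above all 3 qhsc arrays. The median of the mitochondrial members was 3.19, 2.85 and 3.56 in qhsc, 3.30, 3.27 and 3.27 in nc, and 3.30, 3.25 and 3.28 in si-cav, so here the groups overlapped and the qhsc arrays were far more spread.

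**Figure D1:**
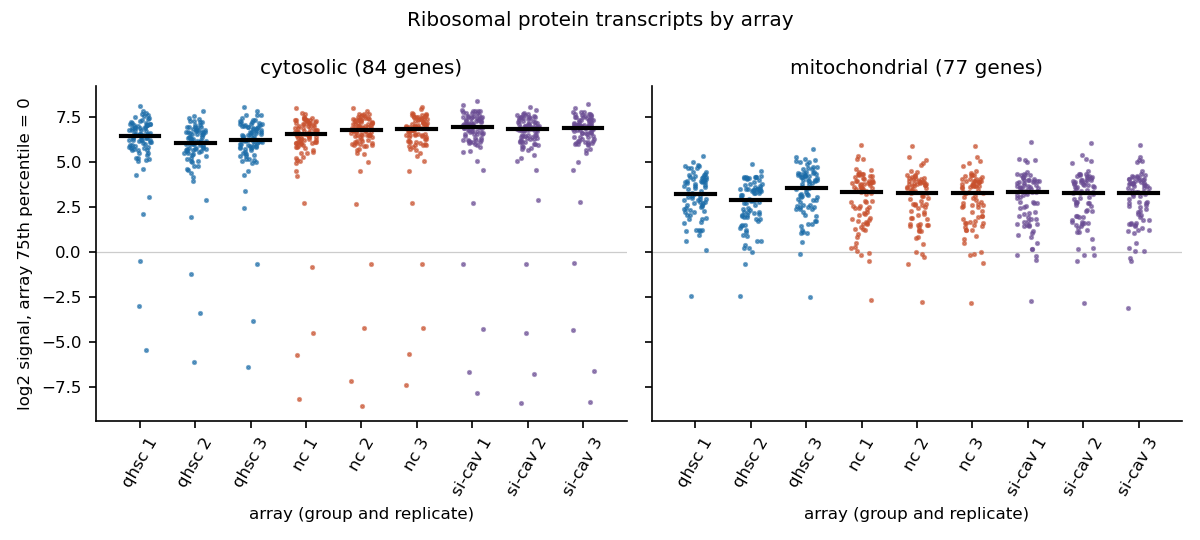
Log2 signal (array 75th percentile = 0) of the 84 cytosolic and 77 mitochondrial members on each of the 9 arrays, 1 point a gene, with the median as a black bar. The cytosolic median runs from 6.06 to 6.43 in qhsc and from 6.51 to 6.93 in the cultured cells, while the mitochondrial medians of the cultured cells lie between 3.25 and 3.30, inside the qhsc range.

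In the comparison of nc with qhsc, which asks what differs between cultured, activated cells and quiescent ones, 38 of the 84 cytosolic members rose and 2 fell by limma's test over all genes at an adjusted p under 0.05. The median change was +0.34 on the log2 scale. Across all genes tested 42.1% were higher and 26.0% lower, with a median of +0.32. The nc and qhsc arrays did not overlap for 42 cytosolic members that were higher and 3 that were lower in nc, where 42.8% of all genes were higher and 27.0% lower in this way. The share of cytosolic members that rose was thus near that of all genes, while few fell. Called changes of at least 2-fold numbered 5 upward and 2 downward, against 28.9% and 19.0% of all genes, and the 5 include Rpl37, whose dim probe supports a rise of at least 1.56-fold only. Of the proteins of the large subunit 25 of 46 rose and none fell, with a median of +0.39. Of the small subunit 10 of 30 rose and none fell, with a median of +0.23. No test compared the subunits.

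The cytosolic rise changed in size with the slide and with the background correction. With the slide as a block 19 of the 38 genes were still called and the median fell to +0.17, the value within slide 1, where nc array 1 alone faced the 3 qhsc arrays and none was called higher. Calls fell over all genes too, to 31.8% higher with the slide as a block and 17.4% within slide 1. Without nc array 2 the cytosolic count was 24 (38.7% of all genes), without nc array 3 it was 22 (37.2% of all genes), and without nc array 1 it was 40 (40.1% of all genes). Correcting the raw intensities by normexp moved the median of all genes from +0.32 to -0.13, with 32.8% of genes higher and 38.2% lower, while 46 cytosolic members were then higher, 2 were lower and their median was +0.43. Relative to all genes the cytosolic median was thus +0.02 in the main analysis and +0.56 after normexp, and -0.12 with the slide as a block.

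**Figure D2:**
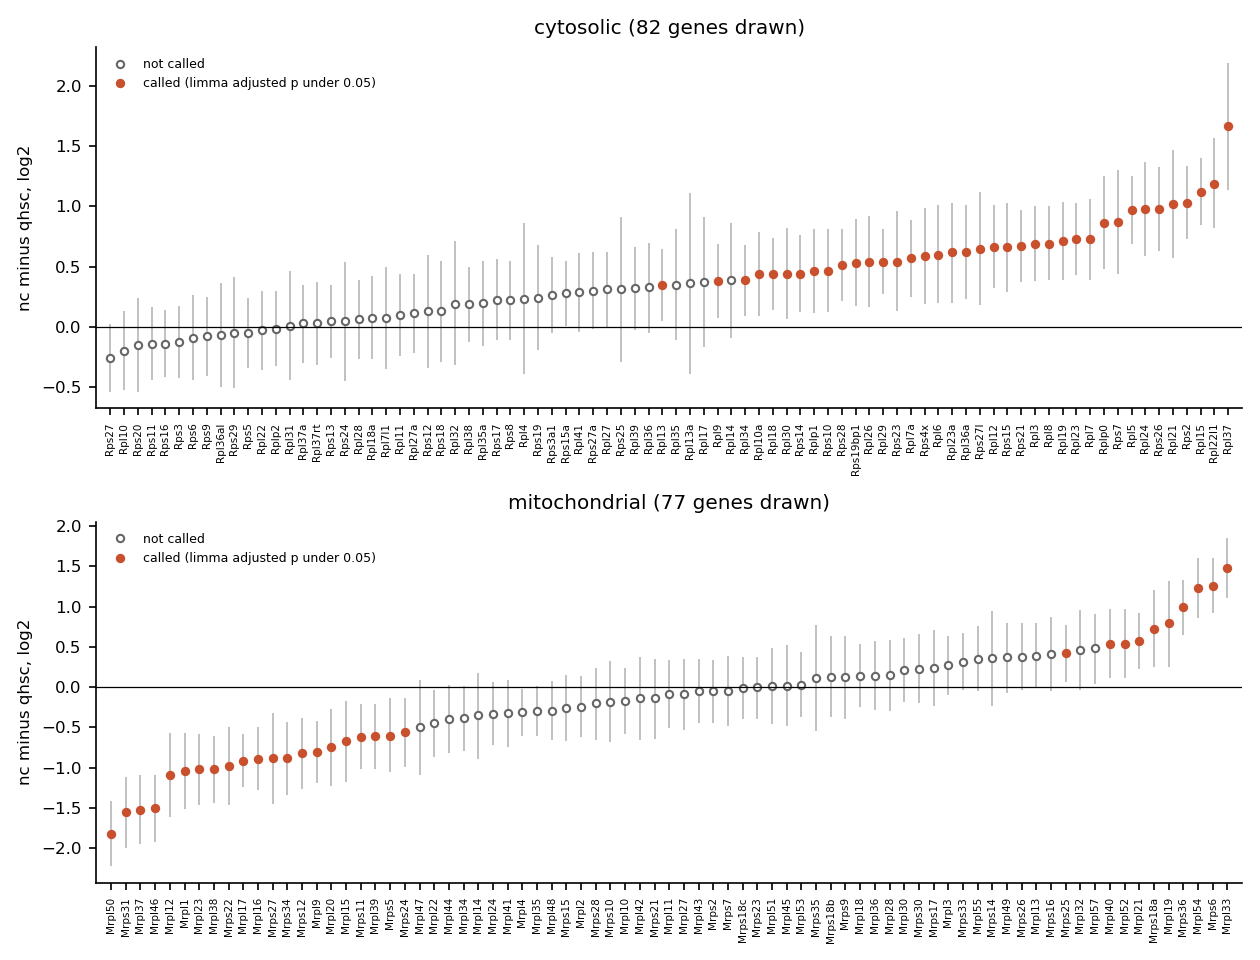
Log2 change from qhsc to nc of each member, ordered by size, with its 95% confidence interval from limma as a grey line and filled points for an adjusted p under 0.05. Rps4l and Rpl39l, both far lower in nc and not above background on every cultured array, lie off the scale and are not drawn. In the upper panel all filled points lie above 0, and in the lower panel 21 filled points lie below 0 and 10 above.

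Rpl15, a core protein of the large subunit, read 5.66, 5.45 and 5.64 on the qhsc arrays, 6.72, 6.66 and 6.75 on the nc arrays and 6.78, 6.77 and 6.79 on the si-cav arrays. The cultured arrays stood well clear of all the quiescent ones, and the rise from qhsc to nc was 1.12 (SE 0.12, limma adjusted p = 3.8e-05), or 2.18-fold. Rps2, which lines the channel where mRNA enters the small subunit, read 5.95, 5.61 and 5.79 in qhsc, 6.78, 6.77 and 6.91 in nc, and 6.97, 6.97 and 6.95 in si-cav. Its rise was 1.03 (SE 0.13, adjusted p = 0.00012), again without overlap. In both genes nc array 1 lay with the other nc arrays, and with the slide as a block the changes were 1.14 (adjusted p = 0.0012) and 0.99 (adjusted p = 0.0038).

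The other members with the largest rises were Rpl37 (+1.67), Rpl22l1 (+1.19), Rpl21 (+1.02) and Rpl24 (+0.98), all of or related to the large subunit. Rps26, a protein near the mRNA exit channel of the small subunit, rose by 0.98 (SE 0.15, adjusted p = 0.00043). Its values were 6.19, 5.74 and 6.09 in qhsc against 6.85, 7.08 and 7.03 in nc. Rpl21 read 5.22, 4.59 and 4.96 in qhsc and 5.66, 6.07 and 6.11 in nc, so nc array 1 stood between the groups. The Rpl37 value came from a dim probe: it was not well above background on any qhsc array, and against the background limit the rise was at least 1.56-fold, while after normexp the change was -0.15. The probe named for its retrocopy, Rpl37rt, was bright, at 7.42, 7.26 and 7.33 in qhsc and 7.17, 7.42 and 7.50 in nc, and was not called. Signal from a gene and its near-identical copy cannot be told apart by hybridisation alone. In each of 20 alternative analyses 18 genes stayed higher at an adjusted p under 0.05. Rpl15, Rps2, Rpl5, Rpl21, Rpl22l1, Rpl24, Rps26 and Rplp0 were among them. Here and below, these 20 leave out the fit within slide 1 and the fit on every kept probe, which gives no single value a gene.

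The 3 proteins of the ribosomal stalk, which recruits elongation factors to the large subunit, did not move as one. Rplp0, the anchor of the stalk, read 5.67, 5.32 and 5.31 in qhsc and 6.03, 6.43 and 6.42 in nc and rose by 0.86 (SE 0.17, adjusted p = 0.0016). Rplp1 rose by 0.46 (SE 0.15, adjusted p = 0.024), a call lost with the slide as a block (adjusted p = 0.20). Rplp2 was not called, at 7.55, 7.21 and 7.31 in qhsc and 7.31, 7.33 and 7.39 in nc. The difference between Rplp0 and Rplp2 was not tested.

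Rpl5 and Rpl11 bind the 5S ribosomal RNA and, when free, the p53 inhibitor Mdm2. Rpl5 rose by 0.97 (SE 0.12, adjusted p = 0.00011), from 5.46, 5.34 and 5.51 in qhsc to 6.39, 6.35 and 6.48 in nc. Rpl11 read 6.87, 6.53 and 6.83 in qhsc and 6.67, 6.90 and 6.95 in nc, overlapping values with a change of +0.10 (95% interval -0.24 to 0.44, adjusted p = 0.58), and of -0.08 with the slide as a block. Rps19, the gene most often mutated in Diamond-Blackfan anaemia, had a change of +0.24 (SE 0.19, adjusted p = 0.28), and of -0.10 with the slide as a block.

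The paralogs held both the strongest falls and one of the strongest rises among the cytosolic members. Rpl22l1, a paralog of the RNA-binding protein Rpl22, read 4.26, 3.94 and 4.24 in qhsc, 5.07, 5.48 and 5.47 in nc and 5.57, 5.34 and 5.49 in si-cav, a rise of 1.19 from qhsc to nc (SE 0.17, adjusted p = 0.00019). Rpl22 itself read 5.11, 4.75 and 5.16 in qhsc and 4.91, 4.97 and 5.03 in nc and was not called (change -0.03, 95% interval -0.36 to 0.30). The first 30 of the 60 bases of the probes behind these values, from the deposited files, are given below. In the best ungapped overlap of at least 30 bases between the probes 39.1% of bases were identical. This sets probe against probe, not a probe against the transcript of the paralog, so cross-hybridisation was not tested.
Rpl22, A_51_P387878, mm9 chr4:151704158-151704217: aacctcggcggaggagtcgtgaccatcgaa
Rpl22l1, A_55_P2159026, mm9 chr3:28706237-28706296: cagagtctgaggactaattggcctctgctt

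Rps27l, a p53-responsive paralog of Rps27, rose by 0.65 (SE 0.21, adjusted p = 0.019), a call lost with the slide as a block (adjusted p = 0.30). Rps27 read 7.14, 6.93 and 7.05 in qhsc and 6.73, 6.81 and 6.82 in nc, without overlap but short of the threshold (change -0.26, adjusted p = 0.091). Both probes named Rps27 map to mm9 chromosome 9, while RefSeq places the gene on chromosome 3, so these values may include a copy of the gene. Rpl39l, a paralog of Rpl39 known from testis, read -3.03, -3.40 and -3.86 in qhsc and was above background on no cultured array, which makes it at least 6.58-fold lower in nc. It passed the filter only through qhsc, and after normexp its change was -1.39, a smaller fold than this bound. Rpl39 changed by +0.32 (adjusted p = 0.090). Rpl7l1 (+0.07) and Rpl36al (-0.07) were not called, whereas Rpl7 rose by 0.73 (adjusted p = 0.002) and Rpl36a by 0.62 (adjusted p = 0.01).

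The largest change of any member was that of Rps4l, a paralog of the X-linked Rps4x that RefSeq lists with a non-coding transcript. Its probe read 3.01, 2.85 and 3.38 on the qhsc arrays, -5.73, -7.19 and -5.65 on the nc arrays and -6.66, -6.78 and -6.62 on the si-cav arrays. All 3 quiescent arrays were above background, while of the cultured ones 2 of 3 nc arrays and no si-cav array were. It passed the filter only through qhsc. The measured change to nc was -9.27, and -6.30 after normexp, so its size depends on the background correction. On the main scale the transcript was at least 543-fold lower in si-cav than in qhsc. The limit was the dimmest probe well above background on each array. This bound holds for that background correction only, and after normexp the fall to nc was a smaller fold than this. Rps4x rose by 0.59 (SE 0.18, adjusted p = 0.015), a call lost with the slide as a block (adjusted p = 0.30). The best overlap between the Rps4l probe and any Rps4x probe had 36.4% identical bases, which again compares probes only and does not test cross-hybridisation. The probe's first 30 bases, which belong to this non-coding transcript, are shown because the result rests on this single probe.
Rps4l, A_51_P406105, mm9 chr6:148304018-148304077: tgaagtggactctgagggacattgcgggga

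**Figure D3:**
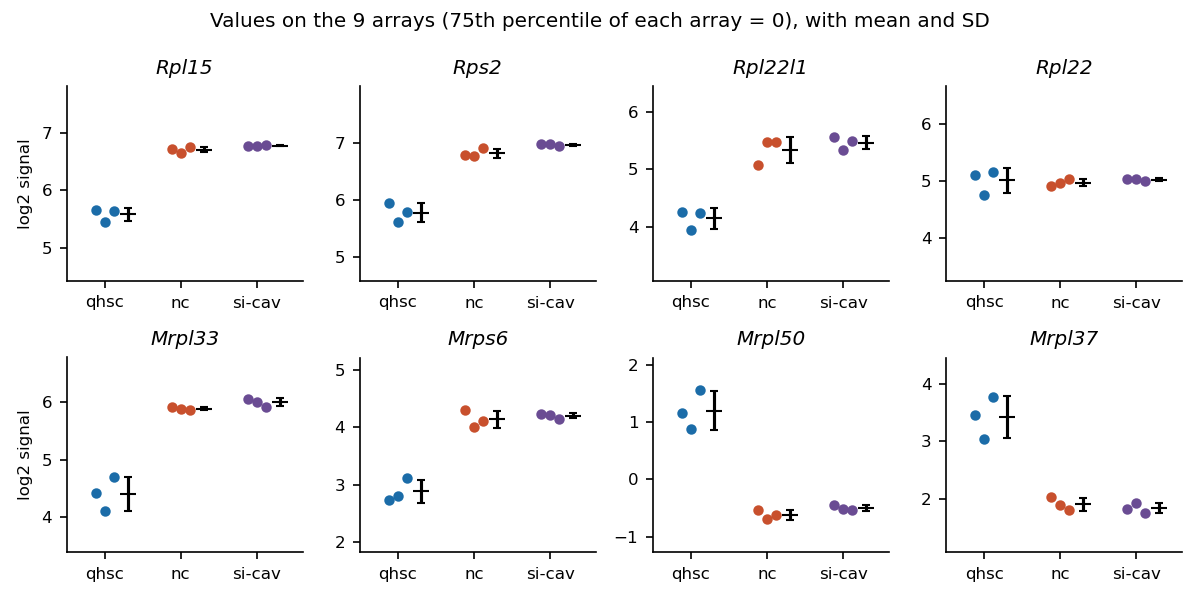
Log2 signal of 8 members on the 9 arrays, each panel spanning the same range of log2 units, with the mean and SD (n = 3) beside each group. Rpl15, Rps2, Rpl22l1, Mrpl33 and Mrps6 are higher and Mrpl50 and Mrpl37 lower on all 6 cultured arrays than on any qhsc array, while Rpl22 overlaps; si-cav lies close to nc throughout.

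The annotated start sites of the members were read from RefSeq (GRCm38.p6), with 77 start sites for 65 cytosolic members and 74 for 68 mitochondrial members. A cytosine followed by 4 pyrimidines at exactly the annotated first base was present at 13 cytosolic start sites (16.9%), at none of the mitochondrial ones and at 2.51% of all 32851 start sites. Windows from 15 bases before the start site to 15 from it are shown for 4 of the 13 cytosolic genes with the tract, the 3 that rose and Rplp2, which was not called, and for 3 mitochondrial members as examples, the one with the largest rise and 2 that fell; capitals mark the unbroken run of pyrimidines that begins at the annotated start.
Rpl15, chr14:18270972-18271001, minus strand: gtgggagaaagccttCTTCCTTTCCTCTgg
Rps10, chr17:27635230-27635259, minus strand: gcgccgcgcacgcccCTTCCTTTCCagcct
Rps21, chr2:180257364-180257393, plus strand: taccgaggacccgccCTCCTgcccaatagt
Rplp2, chr7:141447636-141447665, plus strand: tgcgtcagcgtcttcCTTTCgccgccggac
Mrpl33, chr5:31613936-31613965, plus strand: cccgcgcatgccccggaagtagtcgttgag
Mrpl50, chr4:49521069-49521098, minus strand: tggctgagtcgggcaCgtctggcgctcttg
Mrpl37, chr4:107066852-107066881, minus strand: gcgctccgcccctttggctcccagcagtcc

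The genes with the tract at the annotated start had no larger median change than the others. Of the 13 cytosolic genes with it 3 rose, Rpl15, Rps10 and Rps21, and none fell, with a median change of +0.20. Of the 50 other cytosolic genes with an annotated start 26 rose and 1 fell, with a median of +0.37. No test was made of this difference. Rpl27a and Rpl7a, whose runs of 16 and 7 pyrimidines begin with T at the annotated start, count among the others. The others are thus not a group without a tract, and the split cannot show how such groups differ. When the tract could begin anywhere within 10 bases of the annotated start, 53.2% of cytosolic, 41.9% of mitochondrial and 30.7% of all start sites had it. In the 300 bases around each start, from 250 before to 50 after and on either strand, CCGGAAG, a core of the site of GABPA and other ETS factors, was present at 33.8% of cytosolic and 33.8% of mitochondrial start sites against 8.86% of all. AAGATGGC, the core of the YY1 site, was present at 10.4, 16.2 and 2.75%. The end of the first motif and the start of the second share the letters AAG, so 1 stretch can hold both, and a match says nothing of whether a factor was bound.

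The mitochondrial ribosomal proteins moved in both directions: 10 of 77 rose and 21 fell from qhsc to nc, where 42.1% of all genes rose and 26.0% fell. The groups did not overlap for 12 members that were higher and 23 that were lower, where the shares over all genes were 42.8% and 27.0%. Their median change was -0.09, and it was +0.05 under median scaling, so the family as a whole has no settled direction. Relative to the median of all genes it was -0.41 in the main analysis, -0.42 under median scaling and +0.08 after normexp. Among large subunit proteins numbered up to 36, the range shared with bacterial names, 3 of 28 rose and 8 fell. Among those with higher numbers, which are mostly proteins that mitochondria added, 3 of 20 rose and 5 fell. Among proteins named Mrps, with Mrps36 left out, 2 of 16 numbered up to 21 rose and 3 fell, and 1 of 12 with higher numbers rose and 5 fell. The names alone set these groups, not the place of each protein in the ribosome.

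The qhsc arrays themselves set much of the spread here. On qhsc array 2, 75 of the 77 mitochondrial members lay below both other qhsc arrays, by a median of -0.57 against their mean, compared with 78 of 84 cytosolic members by -0.27 and 40.3% of all genes by -0.06. Without qhsc array 2 the fit called 35 mitochondrial members lower and 8 higher, with a median of -0.30, where 27.8% of all genes were lower and 42.4% higher. Without qhsc array 3 it called 18 in each direction, with a median of +0.08, where 25.8% of all genes were lower and 43% higher. With the slide as a block 13 of the 21 falls and 4 of the 10 rises were still called, in a fit that called 20.6% of all genes lower and 31.8% higher. Within slide 1 the calls were 2 lower and 2 higher, against 14.4% and 17.4% of all genes. Leaving out nc array 2 or nc array 3 brought the rises to 6, where 38.7% and 37.2% of all genes were higher.

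Mrpl33, a small protein of the large subunit, had the largest rise. It read 4.42, 4.10 and 4.69 in qhsc, 5.92, 5.88 and 5.86 in nc and 6.06, 6.01 and 5.92 in si-cav, and rose by 1.48 from qhsc to nc (SE 0.16, limma adjusted p = 4.1e-05). Mrps6, a small subunit protein with a bacterial counterpart, read 2.74, 2.80 and 3.11 in qhsc and 4.30, 4.01 and 4.12 in nc. Its rise was 1.26 (SE 0.15, adjusted p = 6.3e-05). Mrpl54 rose by 1.23 (SE 0.16, adjusted p = 0.00014), from 2.88, 2.33 and 2.75 to 3.82, 3.89 and 3.95. These 3 genes and Mrps36 (+0.99) were called higher in each of the 20 alternatives other than the fit within slide 1, and Mrpl33 and Mrps6 were called there too (adjusted p = 0.038 and 0.040). Mrpl19 (+0.79, adjusted p = 0.015) and Mrps18a (+0.72, adjusted p = 0.013) lost their calls with the slide as a block (adjusted p = 0.27 and 0.14). Of the other relatives of bacterial S18, Mrps18b changed by +0.13 and Mrps18c by -0.01, and neither was called.

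The falls were led by Mrpl50, Mrps31, Mrpl37 and Mrpl46, all of them mitochondrial ribosomal proteins with no counterpart in bacteria. Mrpl50 read 1.16, 0.87 and 1.55 in qhsc, -0.54, -0.70 and -0.63 in nc and -0.45, -0.52 and -0.54 in si-cav, a change of -1.82 (SE 0.18, limma adjusted p = 1.8e-05). Mrps31 read 3.08, 2.81 and 3.56 in qhsc and 1.62, 1.55 and 1.62 in nc, a change of -1.55 (SE 0.19, adjusted p = 8.6e-05). Mrpl37 fell by 1.52 on the log2 scale (SE 0.19, adjusted p = 9.4e-05), from 3.47, 3.04 and 3.77 to 2.03, 1.89 and 1.80. In each of these the groups were separated by a wide gap. Mrpl46 changed by -1.50 (SE 0.18, adjusted p = 7.1e-05). Mrpl12, the stalk protein that has also been described as a partner of mitochondrial RNA polymerase, read 4.82, 4.11 and 5.08 in qhsc and 3.55, 3.52 and 3.68 in nc, a change of -1.09 (SE 0.23, adjusted p = 0.0024). Mrpl1, of the opposite stalk, changed by -1.04 (SE 0.21, adjusted p = 0.0017). These 6 were among the 12 falls called in each of the 20 alternatives, and within slide 1 Mrpl50 and Mrps31 were still called (adjusted p = 0.027 and 0.045).

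Other genes of ribosome production and translation were read from lists drawn up for this purpose. Of 85 genes listed for ribosome assembly 44 rose and 6 fell from qhsc to nc, with a median of +0.50. Utp20 (+2.52, adjusted p = 1.3e-06), Nop56 (+1.77, adjusted p = 2.9e-06), a core protein of box C/D particles, and Rcl1 (-3.02, adjusted p = 5.9e-06) changed most. Of 15 genes of RNA polymerase I and its factors 9 rose and 1 fell, among them the initiation factor Rrn3 (+1.27, adjusted p = 0.00027), Taf1d (+1.79, adjusted p = 1e-05) and the largest subunit Polr1a (+1.26, adjusted p = 0.00077). Of 49 cytosolic translation factors 22 rose and 7 fell, led by Eef1g (+1.42, adjusted p = 1.1e-05), Eif1ax (+1.30, adjusted p = 0.00022) and Eif2s1 (+1.12, adjusted p = 5e-04). Polr1b was on both the assembly and the polymerase list, Eif6 on both the assembly and the translation list, and neither was called. In the same fit 42.1% of all genes were higher and 26.0% lower. With the slide as a block 33 assembly factors were called higher and 1 lower, 9 and 1 polymerase genes, and 12 and 4 translation factors, where 31.8% of all genes were higher and 20.6% lower.

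Of the cytosolic ribosomal proteins that carry other names, Rpsa (+0.83, adjusted p = 0.0017) and Rack1 (+0.60, adjusted p = 0.014) rose, and the other 2 of 4 were not called. A list of 7 held mitochondrial ribosomal proteins with other names on the array, Mrpl58 among them, and the membrane insertase Oxa1l. Of these 3 fell, Gadd45gip1 (-0.84, adjusted p = 0.012), Aurkaip1 (-0.54, adjusted p = 0.031) and the peptide hydrolase Mrpl58 (-0.49, adjusted p = 0.039), and none rose. None of these 3 was called with the slide as a block. These counts, and those of the lists that follow from the same fit, stand against 42.1% of all genes higher and 26.0% lower. Of 53 further genes of mitochondrial translation and its RNA 13 rose and 17 fell, with the asparaginyl-tRNA synthetase Nars2 (-2.97, adjusted p = 7e-06), the rRNA methyltransferase Mrm1 (+1.79, adjusted p = 7e-06) and Mterf1a (+1.67, adjusted p = 0.00028) at the extremes. Of 54 nuclear-encoded subunits of the respiratory chain and ATP synthase none rose and 28 fell, including Sdhb (-1.84, adjusted p = 1.6e-05), Uqcrc2 (-1.78, adjusted p = 2.5e-05) and Ndufv1 (-1.06, adjusted p = 0.00052), and 11 of this list were called lower with the slide as a block, where 20.6% of all genes were. Among 28 regulators of ribosomal gene expression 13 rose and 5 fell, with Mycn (+4.69, adjusted p = 1.2e-06), Tia1 (+2.66, adjusted p = 1.9e-07) and the coactivator Ppargc1a (-3.01, adjusted p = 1.1e-06) changing most. All 20 cell cycle genes rose, with Ccnb1 (+4.97, adjusted p = 3.5e-07), Bub1 (+4.56, adjusted p = 4.4e-06) and Cdk1 (+4.47, adjusted p = 5.2e-08) at the top.

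Different probes of a member did not always give the same answer. Of the 87 members with more than 1 kept probe 66 had the same sign on every probe, and in 51 the log2 changes lay within 0.5 of each other, while in 16 they spread over more than 1. Counting every kept probe, 89 of 179 cytosolic probes were higher and 6 lower, against 43.0% and 25.0% of all 36817 kept probes, and 21 of 113 mitochondrial probes were higher and 26 lower. Of mitochondrial probes designed on RefSeq mRNAs 13 of 99 were higher and 25 lower, while of those designed on Ensembl transcripts 7 of 11 were higher and none lower. The RefSeq probes had a median log2 level of 2.72 and the Ensembl ones of -3.42. Target and brightness thus differed together, and the part of each was not tested. In the Mrps18a pair the probe on the RefSeq mRNA gave +0.72 and a dim probe on an Ensembl transcript gave +2.23. For Rpl10a the bright probe gave +0.44 and a dim one on an Ensembl transcript +3.05 (SE 0.17, adjusted p = 3.5e-07). For Rps9 the bright probe gave -0.08 and one on an Ensembl transcript -2.14 (SE 0.14, adjusted p = 1.2e-06).

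The widest spread was that of Rps24, a small subunit protein whose mRNA is known to be spliced in several ways at its 3′ end. The first 30 bases of its 4 probes are given in their order along mm9 chromosome 14; the first and second probes span a stretch of the genome far longer than their 60 bases, as a probe across a splice junction does.
A_55_P1993880, chr14:25311190-25312666: tggccattatgagaagaaaaagacctcccg
A_55_P1955243, chr14:25312695-25315015: aatgttggtgctggcaaaaagtgagtggag
A_52_P100002, chr14:25314669-25314728: caggtatagttcaagctattccgtagatca
A_55_P2032600, chr14:25315021-25315080: ttgatgttttgctgtgatgtgcagatttct

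The last of these, the brightest and the one that stood for the gene, read 6.45, 6.01 and 6.01 in qhsc and 5.81, 6.47 and 6.34 in nc and was not called (change +0.05, SE 0.22). A_52_P100002, which was designed on a predicted RefSeq transcript and lies inside the interval that A_55_P1955243 spans, read -3.89, -3.70 and -3.72 in qhsc, 1.44, 1.22 and 1.28 in nc and 1.24, 1.33 and 1.39 in si-cav. It was above background on all 9 arrays, and its rise of 5.08 (SE 0.13, limma adjusted p = 5.6e-09 over all kept probes) was the largest of any kept member probe. Here nc array 1, on the slide of the qhsc arrays, was the highest of the nc arrays. The probe A_55_P1955243 read 4.40, 5.16 and 4.21 in qhsc and 5.92, 6.33 and 6.31 in nc (+1.60, adjusted p = 0.00033), and A_55_P1993880 changed by +1.06 (adjusted p = 0.017). What each of these probes detects was not tested.

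**Figure D4:**
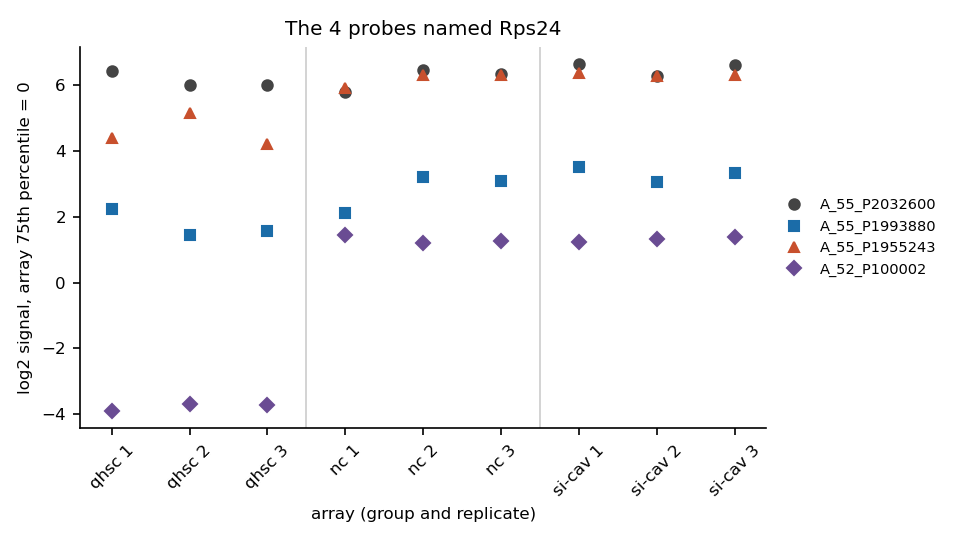
Log2 signal (array 75th percentile = 0) of the 4 probes named Rps24 on the 9 arrays, with lines between the groups. A_52_P100002 lies between -3.89 and -3.70 on the qhsc arrays and between 1.22 and 1.44 on the cultured arrays, while A_55_P2032600 stays between 5.81 and 6.64 on all 9.

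In the comparison of si-cav with nc, which asks what the siRNA against Cav1 did in activated cells, no member was called in either direction, and limma called none of the 23965 genes at all (0% higher, 0% lower). Unadjusted p-values under 0.05 were found for no member, against 0.534% of all genes higher and 4.43% lower. The median change was +0.13 for the cytosolic members and +0.01 for the mitochondrial ones, against -0.04 for all genes. Of the cytosolic members 77 of 84 had a change above 0, against 10360 of all 23965 genes, yet the largest was +0.46. Groups without overlap were found for 14 cytosolic members, all higher in si-cav, and for 13 mitochondrial members higher and 5 lower, where 8.61% of all genes were higher and 14.0% lower in this way.

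The cytosolic members with the smallest unadjusted p-values by limma, none of them past the threshold, were Rpl35 (+0.36), Rpl31 (+0.33), Rpl37rt (+0.26) and Rps20 (+0.29). Rpl35, a protein at the exit of the nascent chain, read 6.53, 7.02 and 7.07 in nc and 7.43, 6.97 and 7.30 in si-cav, a change of +0.36 with a 95% interval of -0.10 to 0.82. Among mitochondrial members Mrps5 (-0.41), Mrpl4 (-0.21), Mrpl52 (+0.24) and Mrps14 (+0.31) came first, again short of the threshold. Mrps5, a small subunit protein with a bacterial counterpart, read 0.26, 0.45 and 0.51 in nc and 0.13, -0.20 and 0.06 in si-cav, with no overlap and a change of -0.41 (95% interval -0.86 to 0.05). For Rpl15 the interval was -0.21 to 0.35 and for Rps2 -0.17 to 0.45, so changes inside these intervals cannot be set aside.

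Cytosolic members were lower on particular arrays within their group. On nc array 1, which shared its slide with the qhsc arrays, 68 of 84 cytosolic members lay below both other nc arrays, by a median of -0.18, compared with 34.5% of all genes. On si-cav array 2, on the slide of the other si-cav arrays, 63 of 84 lay below both others, by a median of -0.13, compared with 36% of all genes. Rpl13a had the largest such distance on nc array 1, at 4.21 against 5.42 and 5.33 on the other nc arrays, and it read 5.18 on si-cav array 2 against 5.53 and 5.63. Over the 84 cytosolic genes the distance of nc array 1 and that of si-cav array 2 correlated at r = 0.73, and over the 77 mitochondrial genes at 0.36. These are correlations over genes that share the same arrays, and they are given as a description. Without nc array 1 the median change of the cytosolic members from nc to si-cav was +0.07, and within slide 2 it was also +0.07.

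**Figure D5:**
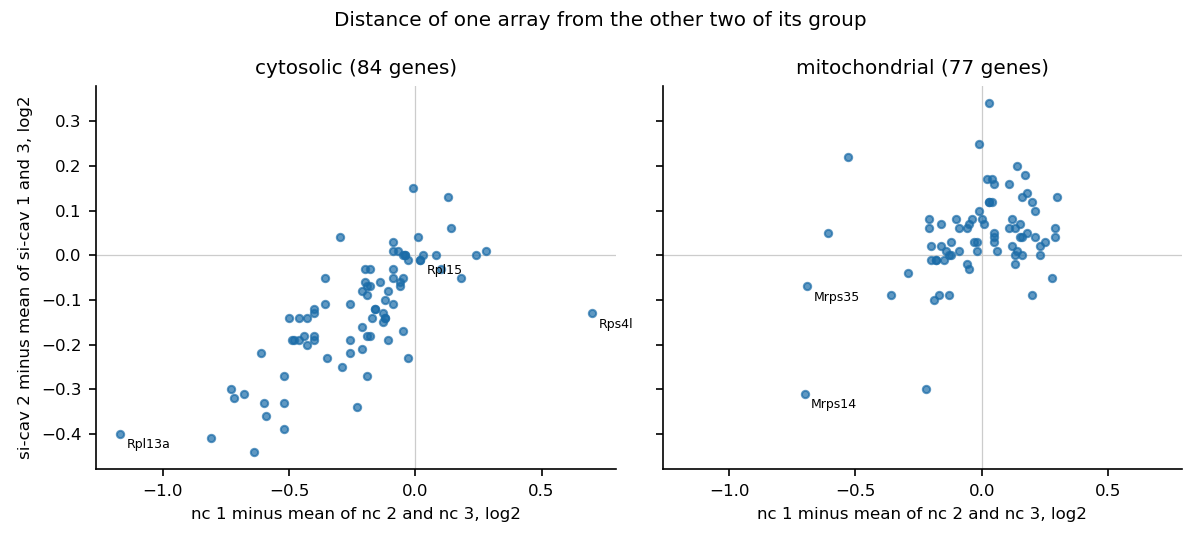
Distance of nc array 1 from the mean of nc arrays 2 and 3 (horizontal, log2) against the distance of si-cav array 2 from the mean of si-cav arrays 1 and 3 (vertical, log2), 1 point a gene. Most cytosolic members lie at the lower left, with Rpl13a at the far end and Rpl15 near 0, while the mitochondrial members scatter around 0.

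Set against qhsc, the si-cav arrays gave 50 of the 84 cytosolic members higher and 2 lower, with a median of +0.52, where 40.4% of all genes were higher and 27.2% lower. Of the mitochondrial members 12 were higher and 24 lower, with a median of -0.13. This comparison shares the qhsc arrays with that of nc and qhsc, and no si-cav array lay on the slide of the qhsc arrays. With the slide as a block, which rests on nc array 1 alone, the members called in either direction went from 88 to 23. How many of all genes that fit called was not counted, so the drop cannot be set against that of all genes.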

How the data were processed

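RNA of 9 samples was hybridised to one-colour Agilent arrays after labelling 0.2 µg with Cy3, per the labels. The deposited intensities are processed signals, from which the scanner software had already subtracted a detrended background; the file headers name it as Agilent Feature Extraction, version 10.7.1.1. The spot flags are other deposited calls of that software. From these, each array was put on log2(processed signal) minus its 75th percentile, control spots and outlier spots were left out, and spots of a probe were averaged. The fit (limma 3.58.1 in R 4.3.3, with the data.table package, 1.17.8) used all 3 groups with no covariate, on 1 probe a gene, with Benjamini-Hochberg adjustment over all 23965 genes and a threshold of 0.05; it was tested on simulated data. Every adjusted p in the text is limma's. A fold given as "at least" sets the brighter group against the dimmest probe above background on each dim array. It is on the main scale and holds for that background correction only. Figures used Python 3.11.15, numpy 2.4.6 and matplotlib 3.10.9. Probe coordinates are those of the files (mm9), and start sites are RefSeq's (GRCm38.p6).

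The members and lists were chosen with earlier results of these data known. Genes named are Rpl15 and Rps2, the stalk, paralog pairs, Rpl5, Rpl11 and Rps19, the 6 largest called rises and falls of each family (or, with none called, the 4 smallest p-values), the 3 largest called changes of each list (of the other-cell lists, counts are given instead), and Cav1; Rps24, Rpl10a, Rps9, Rpl13a and the start-site genes were chosen after their values were seen. Alternatives changed the background correction, scaling, probe filter, probe rule, slide or replicate block, array weights, groups fitted and single arrays. The number of arrays limits the precision. Same-numbered arrays of different groups correlated at -0.11 to 0.17 in their deviations, and differently numbered ones at -0.27 to 0.28. With 3 arrays a group this cannot show whether the numbers pair samples. The labels do not say so, and the numbers were not taken to.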

Additional observations from a re-analysis of the deposited data

How the results depend on the processing

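From qhsc to nc, the cytosolic count of 38 higher became 25 with only the 2 groups fitted (38.1% of all genes) and 19 with the slide as a block (31.8% of all genes). The 2 lower became 0 when probes had to be above background on all 9 arrays (28.2% of all genes). The cytosolic median was 0.17 with the slide as a block and within slide 1, and 0.48 under median scaling. The mitochondrial counts were 16 higher after normexp (32.8% of all genes) and 13 lower under median scaling (21.8% of all genes, mitochondrial median 0.05). With the slide as a block they were 4 higher and 13 lower, against 31.8% and 20.6% of all genes. Counting every kept probe gave 89 cytosolic higher and 6 lower and 21 mitochondrial higher, where 43.0% of all kept probes were higher and 25.0% lower. Between si-cav and qhsc 170 were then called, against 88 members in the main analysis and 23 with the slide as a block. For these alternatives the share of all genes called between si-cav and qhsc was not counted. Leaving out 1 array gave 22 to 40 cytosolic members higher, 6 to 18 mitochondrial higher, 18 to 35 mitochondrial lower and a mitochondrial median of -0.30 to 0.08. Over all genes the same fits called 37.2 to 43% higher and 23.2 to 27.8% lower. Among named genes called from qhsc to nc 1 value changed sign, Rpl37 at -0.15 after normexp, whose probe is dim; changes that were not called could also turn, as with the slide as a block for Rps19 (-0.10), Rpl11 (-0.08), Rpl31 (-0.34), Mrps14 (-0.10) and Rpl37rt (-0.17). Fewer samples or probes enter some of these fits; otherwise the cause was not tested. Without a filter on dim probes 9641 of all genes were higher and 10879 lower, and after normexp 7850 and 9147, against 10089 and 6239. With the replicate number as a block 33 cytosolic members were higher and 2 lower, and 8 mitochondrial higher and 21 lower, where 41% of all genes were higher and 25.1% lower. The labels do not say whether the numbers pair the samples, and they were not taken to. No alternative called a member between si-cav and nc, while array weights called 95 genes higher and 561 lower there.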
